A study of Mus musculus with 20 samples.

Results

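The mitochondrial ribosomal protein genes of mouse liver are described here, taken as every row of the deposited count table whose symbol starts with Mrpl or Mrps followed by a digit, with pseudogenes left out. The rule found 78 genes among 20914, with 49 Mrpl and 29 Mrps symbols, on 17 chromosomes. Mitochondria keep their own ribosome, which translates the few proteins encoded in mitochondrial DNA, all of them subunits of the respiratory chain and ATP synthase. Its RNAs come from mitochondrial DNA, but every protein of it is made from a nuclear gene, translated in the cytosol and imported. Mrpl genes encode proteins of the large subunit, which forms peptide bonds, and Mrps genes encode proteins of the small subunit, which decodes the messenger RNA. Part of the proteins have bacterial homologues and part are specific to mitochondria. Hepatocytes, the main cells of the liver, are rich in mitochondria.

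Total RNA of the left lateral liver lobe was sequenced from 10 knockout (KO) and 10 control (WT) mice, all males of the LiB12cKO strain and 8 weeks old. KO mice were HSD17B12lox/lox;Alb-CreCre/WT and WT mice were HSD17B12lox/lox;Alb-CreWT/WT, so both groups carried the floxed Hsd17b12 alleles, and Cre, driven by the albumin promoter in hepatocytes, was present in KO mice alone. Loss of Hsd17b12, which encodes an enzyme of very long chain fatty acid elongation, and presence of Cre therefore cannot be told apart. The study compared the 2 genotypes to learn what the loss of this enzyme does in liver. Each mouse gave 1 library, and mice are named by genotype and number. In whole liver, fewer cells of a type and less RNA per cell cannot be told apart.

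Assigned fragments ranged from 16693195 to 29124124 per mouse. Hsd17b12 stood at 47.8 ± 2.39 CPM (SD, n = 10; CPM is fragments scaled to a common library total) in KO mice, from 44.2 to 51.3, and at 152 ± 18.5 CPM (SD, n = 10) in WT mice, from 123 to 177, so the genotype labels held in every mouse. Hepatocyte markers were abundant in both groups, with a summed level of 56811 to 70609 CPM in KO and 92730 to 130012 CPM in WT mice. With TMM factors 12 of 12 were lower in KO mice (edgeR, adjusted p under 0.05), and with library size alone 6 were lower and 1 higher. Of all tested genes 31.0% were lower with TMM factors and 6.71% with library size alone. With TMM factors 12 of 14 macrophage markers were higher (428 to 767 CPM in KO, 196 to 397 CPM in WT), as were 3 of 8 endothelial, 6 of 8 stellate and fibroblast and 4 of 5 tested proliferation markers, beside 28.2% of all tested genes. With library size alone these 4 counts were 13, 8, 6 and 5, beside 68.4% of all tested genes. Of 5 tested biliary markers 2 were higher and 1 lower with TMM factors, and 3 higher and 0 lower with library size alone. Of 3 tested lymphocyte markers 1 was lower and 0 higher under either scaling. Cldn4 was at 0 in 4 mice, Ms4a1 in 3, Cd8a in 2 and Cd3g in 1. These markers moved with genotype in the same mice as the values given here, and their part in those values was not tested.

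The start regions of the members that moved most in each direction are shown first, read from RefSeq on GRCm38.p6. Each is the stretch before the gene's start on the gene's own strand, and capitals mark a match to a searched motif. The capitals in Mrpl16 mark TGACGTCA, the letters bound by the CREB and ATF family, and those in Mrpl18 mark CCGGAAGT, the letters bound by ETS factors such as GABP. With TMM factors, a scaling explained with the results, the first 2 genes were higher in KO mice and the last 2 were lower; with library size alone the last 2 were not called. Mrpl27 is shown for the 36 bases that part its start from that of Eme1.
Mrps18a, chr17:46110754-46111003, plus strand: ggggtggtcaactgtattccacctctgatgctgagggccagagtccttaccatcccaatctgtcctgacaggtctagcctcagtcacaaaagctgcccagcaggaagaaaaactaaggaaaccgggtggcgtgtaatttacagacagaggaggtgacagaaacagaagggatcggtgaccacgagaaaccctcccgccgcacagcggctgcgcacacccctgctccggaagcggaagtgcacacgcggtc
Mrpl16, chr19:11770165-11770414, plus strand: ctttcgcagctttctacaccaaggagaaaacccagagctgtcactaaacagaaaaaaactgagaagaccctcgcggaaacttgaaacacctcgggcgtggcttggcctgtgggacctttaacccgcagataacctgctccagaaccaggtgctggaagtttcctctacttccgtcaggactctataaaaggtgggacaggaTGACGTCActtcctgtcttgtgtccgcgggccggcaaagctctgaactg
Mrpl18, chr17:12916092-12916341, minus strand: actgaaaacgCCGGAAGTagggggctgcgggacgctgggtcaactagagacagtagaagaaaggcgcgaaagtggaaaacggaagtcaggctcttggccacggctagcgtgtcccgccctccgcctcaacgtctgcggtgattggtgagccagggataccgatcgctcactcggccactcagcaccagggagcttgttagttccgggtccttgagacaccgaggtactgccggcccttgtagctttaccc
Mrpl27, chr11:94653755-94653790, plus strand: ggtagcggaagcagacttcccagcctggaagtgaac

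The motifs searched are those of factors known for nuclear genes of mitochondrial proteins, and each was looked for on both strands from 250 bases before to 50 bases after the start. RefSeq held such a window for 69 members and 10125 tested coding genes, members included. For 44 of the 69 members the start used for the window was that of the deposited annotation, and for the others it differed. CCGGAAGT was in 15.9% of members and 8.43% of tested genes. AAGATGGC, the letters of YY1, were in 17.4% of members and 4.62% of genes. GCATGCGC, the core of the NRF1 motif, was in 11.6% and 5.32%. TGACGTCA was in 2.90% of members and 3.10% of genes, CACGTG, the E-box, in 7.25% and 10.1%, and TCAAGGTCA, the letters of the estrogen-related receptors, in 0% and 0.247%. Of the 43 members with a window that were lower in KO mice with TMM factors, 5 held CCGGAAGT and 8 held AAGATGGC. The other 26 members held them in 6 and 4 windows. Mrps18a held AAGATGGC within the first 50 bases of the gene, and Mrpl27 held CCGGAAGT upstream of the printed bases, where Eme1 has begun; neither stretch is printed. None of these motifs contains another. These matches describe letters, and binding was not measured.

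All members but Mrpl36 had fragments in every mouse. Levels that allow genes to be compared were read as RPKM, the authors' value per kilobase of gene. Among the 77 tested members the WT mean ranged from 2.34 RPKM for Mrps25 to 120.59 RPKM for Mrpl52, a 51.6-fold range, with a median of 25.1 RPKM in WT and 20.3 RPKM in KO mice. Mrpl52, Mrps21 and Mrpl14 had the highest levels, at 121 ± 11.4, 106 ± 12.2 and 106 ± 10.2 RPKM in WT mice (SD, n = 10). Mrps25, Mrpl19 and Mrps17 had the lowest, at 2.34 ± 0.228, 2.80 ± 0.197 and 6.25 ± 0.803 RPKM. Mrps21 and Mrpl14 differed by less than their spread. The order of the members was nearly the same in both genotypes, with a Spearman rho of 0.977 between their mean levels over 77 members, a description in which both means share gene length and counting rules. Large subunit genes had a median WT level of 27.6 RPKM and small subunit genes one of 22.2 RPKM.

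Mrpl36, which encodes a short protein of the large subunit, had at most 4 fragments in any mouse and was not tested, at 0.0533 RPKM in KO and 0.121 RPKM in WT mice. The other members had 44 to 2170 fragments per mouse. Between mice of 1 genotype their CPM varied with a median coefficient of variation of 8.27% in KO and 9.54% in WT mice. Over pairs of members, the median Pearson r across the 10 mice of a genotype was 0.151 in KO and 0.265 in WT, where all members share the library and its scaling. The exons of 14 members overlap those of another gene, among them Mrpl36 (with Gm20338), Mrpl12, Mrpl49, Mrpl41, Mrpl53, Mrps17, Mrps18b, Mrps25, Mrpl19 and Mrpl24, and the sources used here give no setting for strand or overlaps in the counting, so their values are less certain.

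The shift of the family as a whole was small, and its sign depended on how the libraries were scaled. With TMM factors, which centre the bulk of genes, 47 of 77 tested members were lower in KO mice, 5 were higher and 25 did not pass the test, whereas with library size alone 0 were lower and 56 were higher (edgeR quasi-likelihood test, adjusted p under 0.05 over 13670 genes). The TMM factors themselves averaged 1.18 in KO and 0.851 in WT mice without overlap, and replacing them by library size moved the median over all tested genes up by 0.47 (log2). The background was 31.0% lower and 28.2% higher with TMM factors, and 6.71% lower and 68.4% higher with library size. Members were thus called lower in 61.0% with TMM factors, above that background, and higher in 72.7% with library size, near it. The median log2 fold change of the members was -0.21 with TMM factors, beside -0.025 for all genes, and 0.27 with library size, beside 0.44. Relative to the median gene it was -0.18 under both scalings. This near equality follows from the scaling, which moves all genes by about the same amount, and is no separate support. No tested member reached a log2 fold change of 0.6 in size with TMM factors.

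The summed level of the family showed the same dependence mouse by mouse. The TMM-scaled sum was 2224 ± 73.5 CPM (SD, n = 10) in KO mice, with a lowest, median and highest of 2107, 2234 and 2378 CPM, and 2518 ± 123 CPM (SD, n = 10) in WT mice, with 2303, 2540 and 2701 CPM. The sum was below that of all WT mice in 9 of 10 KO mice. With library size alone, the sum was 2620 ± 164 CPM (SD, n = 10) in KO mice, from 2268 to 2798 CPM, and 2136 ± 82.0 CPM (SD, n = 10) in WT mice, from 2051 to 2289 CPM. On that scale 9 of 10 KO mice were above all WT mice, and KO_391 was the exception. Fragments that mapped to several places made up 2.09% to 4.02% in the other KO mice, 8.46% in KO_391 and 3.38% to 14.1% in WT mice, and their part in the scaling was not tested.

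**Figure D1:**
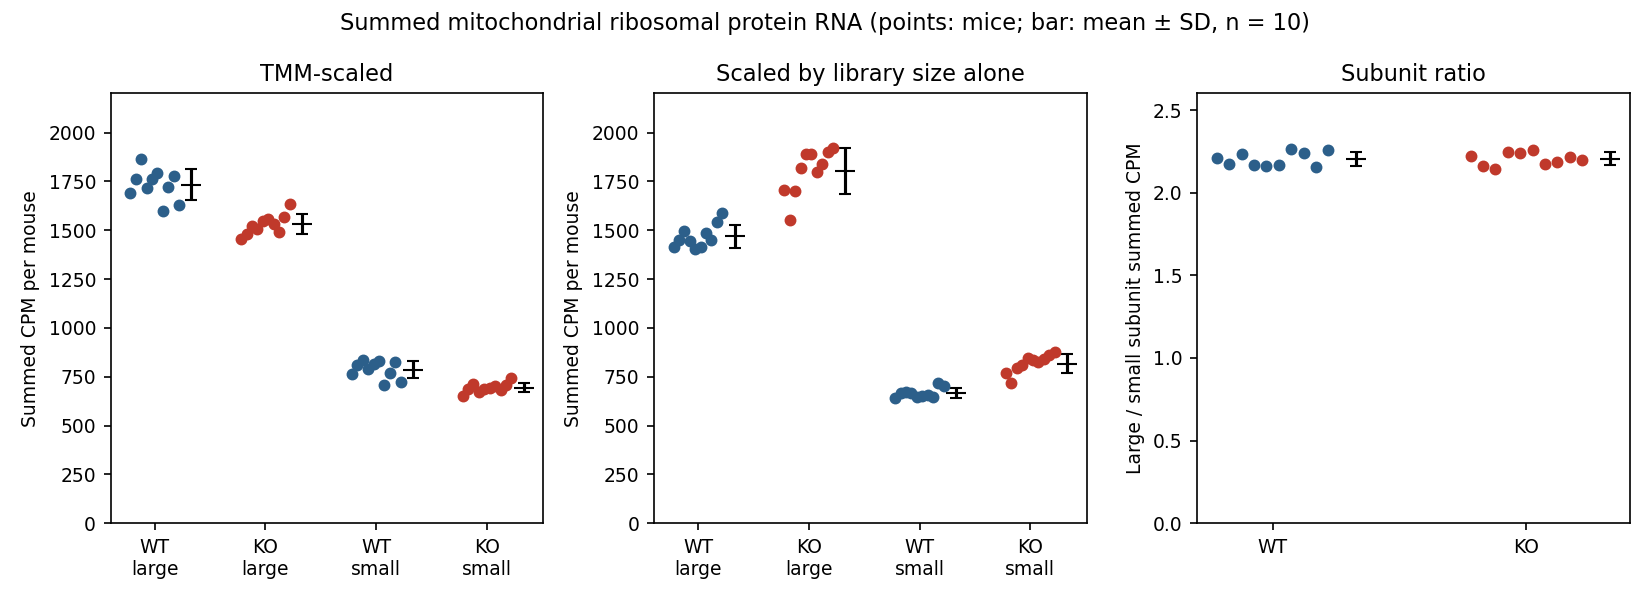
Summed CPM of large and small subunit genes by symbol, with TMM factors (left) and library size alone (middle), and the ratio of both sums (right); points are mice and bars are the mean ± SD of 10 mice. KO sums lie lower than WT with TMM factors and higher with library size, while the ratio is 2.20 in both genotypes.

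Large and small subunit genes had close shares of calls and close medians. With TMM factors, 29 of 48 tested large subunit genes were lower and 4 higher, with a median log2 fold change of -0.19, and 18 of 29 small subunit genes were lower and 1 higher, with a median of -0.22. With library size alone 35 and 21 were higher and 0 of either lower, with medians of 0.29 and 0.25. As shares, 60.4% and 62.1% were lower with TMM factors, beside 31.0% of all tested genes, and 8.33% and 3.45% higher, beside 28.2%. With library size 72.9% and 72.4% were higher, near the 68.4% of all tested genes. The ratio of summed large to summed small subunit CPM does not depend on the scaling. It was 2.20 ± 0.0393 (SD, n = 10) in KO mice, with a lowest, median and highest of 2.14, 2.21 and 2.26, and 2.20 ± 0.0431 (SD, n = 10) in WT mice, with 2.16, 2.19 and 2.26. The groups overlapped almost fully and their means differed by 0.000629, less than either SD. From RPKM, which divides by gene length, the same ratio was 2.06 ± 0.0443 (SD, n = 10) in KO and 2.10 ± 0.0421 (SD, n = 10) in WT mice, and 5 of 10 KO mice lay below all WT mice; there the means differed by -0.0474 (KO minus WT), in size slightly more than either SD.

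Symbols do not always give the subunit, since Mrps18a and Mrps30 encode proteins found in the large subunit, and Mrps36 encodes a protein now assigned to the oxoglutarate dehydrogenase complex. Sorted by published structures, 29 of 50 large subunit genes were lower and 5 higher with TMM factors, and 18 of 26 small subunit genes were lower and 0 higher, with medians of -0.18 and -0.24. With library size the higher counts were 37 and 19, with 0 lower. The shares lower with TMM factors were 58% and 69.2%, beside 31.0% of all tested genes. Those higher with library size were 74% and 73.1%, near the 68.4% of all tested genes. The ratio became 2.53 ± 0.0439 (SD, n = 10) in KO mice and 2.45 ± 0.0505 (SD, n = 10) in WT mice, and 5 of 10 KO mice lay above all WT mice. The means differed by 0.0854 (KO minus WT), more than either SD and more than when sorted by symbol. The 5 higher genes of the large subunit then include Mrps18a, described below. Large subunit proteins with a bacterial homologue had a median of -0.20 over 30 genes and those specific to mitochondria one of -0.16 over 20, and in the small subunit the medians were -0.21 over 17 and -0.33 over 9 genes (TMM factors). With library size these 4 medians were 0.27, 0.32, 0.27 and 0.15.

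**Figure D2:**
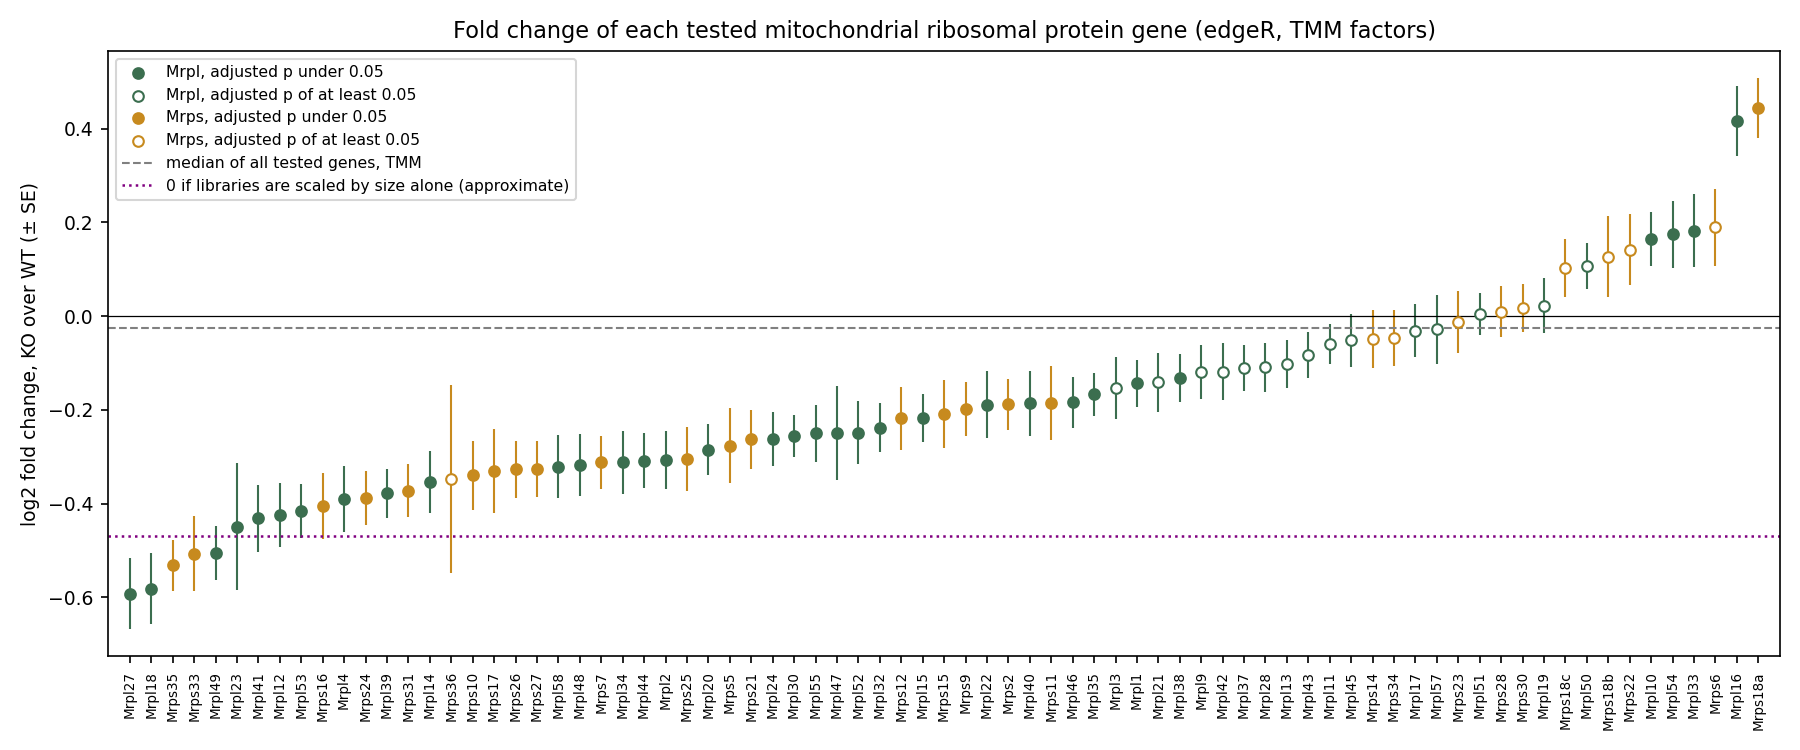
Log2 fold change (KO over WT, TMM factors) of each of the 77 tested members with its standard error; filled points passed an adjusted p of 0.05, green is Mrpl and orange Mrps. The dashed line is the median of all tested genes at -0.025, and the dotted line marks about where 0 would lie with library size alone, so most points are below 0 on the first scale and above it on the second.

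Within the family, Mrps18a and Mrpl16 stood at the upper end under both scalings. Mrps18a, which encodes the large subunit member of the family of 3 proteins related to bacterial S18, lies at chr17:46111004-46128908 (6 exon blocks; gene coordinates are those of the deposited annotation, mm10). It was at 29.2, 35.1 and 41.6 CPM (lowest, median and highest) in KO mice and 23.8, 26.5 and 28.7 CPM in WT mice, so that all KO mice lay above all WT mice. It was the only member of which that was true with TMM factors, where 7.10% of all tested genes had KO wholly above WT. Mrps18a rose by 36.0%, a log2 fold change of 0.44 ± 0.064 (SE; edgeR adjusted p = 3.66e-06), and its log2 fold change with library size alone was 0.92. Its relatives in the small subunit did not pass the test with TMM factors, and had log2 fold changes of 0.60 (Mrps18b) and 0.58 (Mrps18c) with library size. Mrps18b was at 14.6 ± 1.83 CPM in KO and 13.4 ± 1.89 CPM in WT mice (SD, n = 10; edgeR adjusted p = 0.214), and Mrps18c was at 22.3 ± 2.18 and 20.7 ± 1.64 CPM (SD, n = 10; edgeR adjusted p = 0.155). The count ratio of Mrps18a to both relatives together was 0.966 ± 0.0742 (SD, n = 10) in KO and 0.772 ± 0.0712 (SD, n = 10) in WT mice, with ranges of 0.796 to 1.06 and 0.668 to 0.883.

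Mrpl16, at chr19:11770415-11774956, encodes a core protein of the large subunit near its catalytic centre. Its CPM ran from 39.2 over 49.7 to 53.4 in KO mice and from 32.0 over 33.1 to 45.1 in WT mice, with overlap of the groups. WT_407, WT_408 and WT_409 were at 40.9, 44.2 and 45.1 CPM, within the KO range, and the other WT mice at 32.0 to 34.5 CPM. KO_416, KO_414 and KO_391, at 39.2, 43.9 and 45.0 CPM, lay below the highest WT mouse. Mrpl16 rose by 33.5%, a log2 fold change of 0.42 ± 0.075 (SE; edgeR adjusted p = 6.07e-05), and of 0.89 with library size. Mrpl10, which encodes the base of the stalk that recruits translation factors, was at 53.3 ± 4.76 CPM in KO and 47.6 ± 3.65 CPM in WT mice (SD, n = 10), a rise of 0.16 on the log2 scale (edgeR adjusted p = 0.0178). Mrpl54 and Mrpl33 rose by 0.17 and 0.18 (edgeR adjusted p = 0.0394 and 0.0488), with wide overlap of the groups. Leaving out 1 mouse took the adjusted p of Mrpl54 to as much as 0.0759 in 7 of 20 fits (without WT_389, WT_407, WT_408, WT_415, WT_427, WT_429 or WT_441). It took that of Mrpl33 to as much as 0.0974 in 10 of 20 fits (without KO_402, KO_414, KO_416, WT_390, WT_407, WT_409, WT_415, WT_427, WT_429 or WT_441). The 5 rises all passed the test with library size too, as did every gene called higher with TMM factors.

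At the lower end stood Mrpl27, Mrpl18, Mrps35, Mrps33 and Mrpl49, which fell by 29.5% to 33.7% with TMM factors and were not called with library size. Mrpl27, at chr11:94653791-94660087, encodes the homologue of a bacterial protein that reaches into the peptidyl transferase centre. It was at 19.5, 22.4 and 24.6 CPM in KO mice and 28.3, 32.6 and 45.1 CPM in WT mice, without overlap. Mrpl27 fell by 33.7% with TMM factors, a log2 fold change of -0.59 ± 0.075 (SE; edgeR adjusted p = 8.03e-07), and its log2 fold change with library size was -0.11 (edgeR adjusted p = 0.135). Mrpl18, at chr17:12911355-12916091, encodes a protein of the central protuberance of the large subunit. It was at 36.0, 46.0 and 51.7 CPM in KO mice and 55.2, 69.5 and 83.5 CPM in WT mice, again without overlap. Its log2 fold change was -0.58 ± 0.076 with TMM factors (SE; edgeR adjusted p = 1.11e-06) and -0.11 with library size (edgeR adjusted p = 0.228).

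Mrps35, at chr6:147042770-147070902, encodes a small subunit protein specific to mitochondria and had the smallest adjusted p of the family. Its CPM was 16.4, 18.6 and 20.5 in KO mice and 24.0, 26.5 and 30.5 in WT mice, a log2 fold change of -0.53 ± 0.055 with TMM factors (SE; edgeR adjusted p = 4.43e-08) and of -0.06 with library size. Mrps33, another mitochondria-specific small subunit protein, was at 16.5 ± 2.01 CPM in KO and 23.5 ± 2.89 CPM in WT mice (SD, n = 10), with overlap, and had a log2 fold change of -0.51. Mrpl49 was at 20.1 ± 1.74 and 28.6 ± 2.28 CPM (SD, n = 10), without overlap, a log2 fold change of -0.50. Mrpl53, Mrps24 and Mrpl39, named here after their values were seen, make up the 7 members with all KO below all WT mice on the TMM scale, where 6.47% of tested genes had that pattern. On the library size scale 0 members had it, against 1.03% of genes, and 14 had all KO above all WT mice, against 24.9%. No member was called lower under both scalings, against 6.71% of genes, and 5 were called higher under both, against 28.2%. All 3853 genes called higher with TMM factors were also called higher with library size. All 917 genes called lower with library size were also called lower with TMM factors. The counts under both scalings therefore repeat the rises with TMM factors and the falls with library size.

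**Figure D3:**
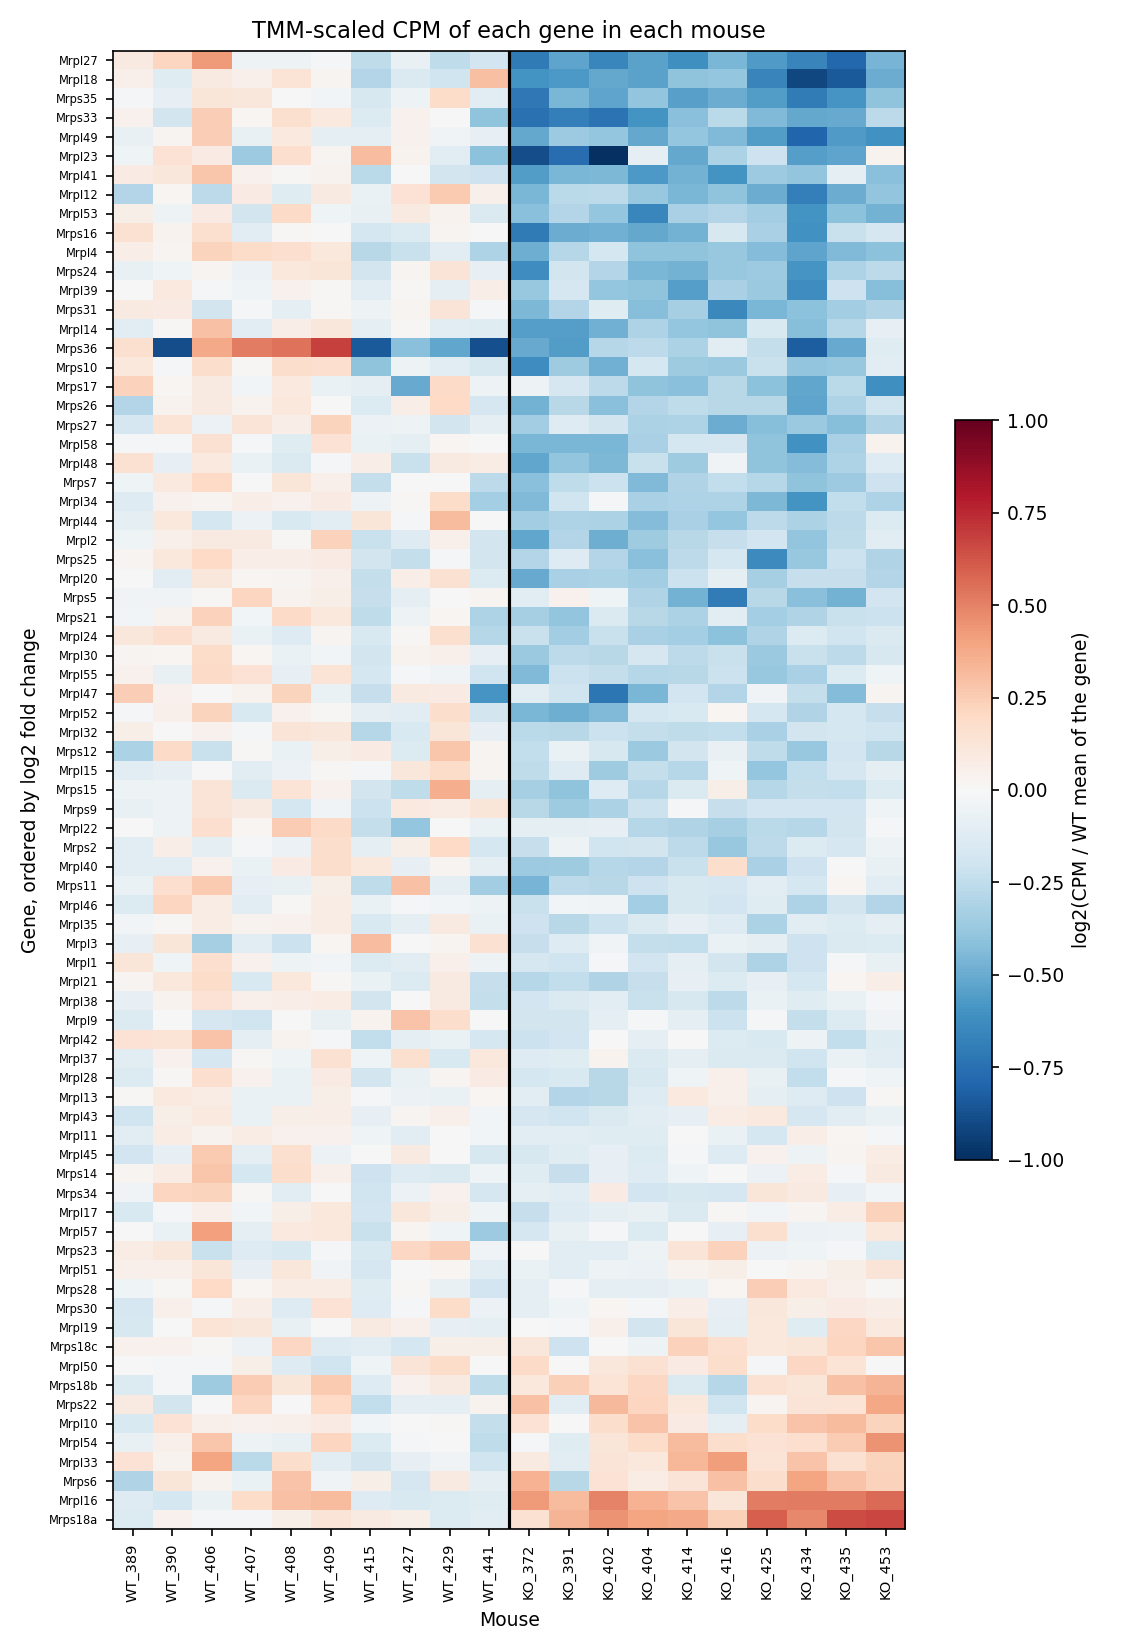
TMM-scaled CPM of each tested member in each mouse as log2 of its ratio to the gene's WT mean; WT mice are left of the line, genes run from the lowest to the highest fold change, and colours end at -1 and 1. KO columns are blue for most members and red for the lowest rows, Mrpl16 and Mrps18a; dividing by library size alone would add about 0.47 to the KO to WT difference of every gene.

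Because the scaling moves all members together, ratios between members were also taken within each mouse, where it cancels. These pairs were chosen after their values were seen and carry no test. The fragments of Mrps18a divided by those of Mrpl27 gave 1.61 ± 0.238 (SD, n = 10) in KO mice, from 1.26 to 2.11, and 0.794 ± 0.118 (SD, n = 10) in WT mice, from 0.575 to 0.984. Mrpl16 over Mrpl18 gave 1.09 ± 0.210 (SD, n = 10), from 0.759 to 1.44, and 0.538 ± 0.0752 (SD, n = 10), from 0.398 to 0.653. In both ratios every KO mouse lay above every WT mouse. For Mrps18a over Mrpl27 this had to be so, since each of these genes already separated the groups with TMM factors. With the libraries scaled to the summed counts of the members, an alternative added after the data were seen, 21 members were called higher and 20 lower, beside 41.5% and 16.8% of all genes. This scaling centres the members by construction, at a median log2 fold change of -0.028, so nothing is read from the balance of these counts. The genes named next were already known as the ends of the family. On that scale Mrps18a had a log2 fold change of 0.62, Mrpl16 of 0.60, Mrpl27 of -0.41, Mrpl18 of -0.40 and Mrps35 of -0.35. These values are a description, and no test is read from them.

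The stalk and the exit tunnel, the sites of the large subunit that meet translation factors and the nascent chain, are given next. Mrpl12, at chr11:120484669-120488754, encodes the stalk protein that is also known to bind the mitochondrial RNA polymerase. It was at 49.1 ± 4.06 CPM in KO and 65.9 ± 7.89 CPM in WT mice (SD, n = 10), a log2 fold change of -0.42 with TMM factors (edgeR adjusted p = 1.32e-05) and of 0.041 with library size (edgeR adjusted p = 0.628). Mrpl12 over its stalk partner Mrpl10 gave 0.930 ± 0.138 (SD, n = 10) in KO mice, from 0.708 to 1.15, and 1.39 ± 0.186 (SD, n = 10) in WT mice, from 1.11 to 1.69, with overlap. At the tunnel, Mrpl23 was at 2.81 ± 0.669 CPM in KO and 3.84 ± 0.577 CPM in WT mice (SD, n = 10) and Mrpl24 at 51.3 ± 3.29 and 61.5 ± 6.23 CPM (SD, n = 10). Their log2 fold changes were -0.45 and -0.26 with TMM factors (edgeR adjusted p = 0.00693 and 0.000517) and 0.029 and 0.21 with library size. Mrpl45, which anchors the ribosome to the inner membrane, was at 27.2 ± 1.59 and 28.2 ± 2.86 CPM (SD, n = 10) and did not pass the test with TMM factors (edgeR adjusted p = 0.444), while its log2 fold change with library size was 0.42.

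Members at the ends of the level range and those with unusual places completed the picture. The 3 most abundant members, Mrpl52, Mrps21 and Mrpl14, had log2 fold changes of -0.25, -0.26 and -0.35 with TMM factors, all past the test, and of 0.23, 0.22 and 0.12 with library size. Of the 3 least abundant, Mrps25 and Mrps17 had -0.31 and -0.33 and passed, and Mrpl19 had 0.023 and did not (edgeR adjusted p = 0.755). With library size these 3 had 0.17, 0.14 and 0.49. Mrpl41, a mitochondria-specific large subunit protein, was at 17.2 ± 1.86 CPM in KO and 23.2 ± 2.65 CPM in WT mice (SD, n = 10), a log2 fold change of -0.43 with TMM factors and 0.048 with library size. Mrps30 was at 26.2 ± 1.32 and 25.8 ± 2.14 CPM (SD, n = 10; edgeR adjusted p = 0.779, TMM factors), with a log2 fold change of 0.49 with library size. Mrps36 was the most variable member in WT mice, with 2.50, 4.31 and 7.41 CPM as lowest, median and highest, against 2.61, 3.74 and 4.28 CPM in KO mice (edgeR adjusted p = 0.139 with TMM factors and 0.482 with library size).

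Many members share their start region with a neighbour. In the deposited annotation, 24 of 78 members (30.8%) had a coding gene on the opposite strand starting within 1000 bases upstream, as did 1435 of 12622 tested coding genes (11.4%). For 1 pair both genes are members: Mrpl46 and Mrps11 start 42 bases apart on chromosome 7, and the 41 bases between them, chr7:78783090-78783130 on the plus strand (GRCm38.p6, RefSeq), are shown because they separate both starts.
Mrpl46 to Mrps11: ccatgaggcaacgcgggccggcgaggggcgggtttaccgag

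Mrpl46, a large subunit gene, and Mrps11, a small subunit gene, had log2 fold changes of -0.18 and -0.19 with TMM factors, both past the test, and of 0.29 each with library size; both were named after their values were seen. Mrps11 had an adjusted p of 0.0467 (edgeR) and lost it in 14 of 20 fits without 1 mouse: each KO mouse, WT_390, WT_406, WT_409 or WT_427, with an adjusted p of up to 0.153. Over the 22 tested partners, which count this pair from both sides, 8 were lower, 5 higher and 9 not called with TMM factors, beside 31.0% and 28.2% of all tested genes, with a median log2 fold change of -0.17. Of the 14 members that were lower and had a partner, 8 had a partner that was lower, 3 one that was higher, 2 one that was not called and 1 one that was not tested, and nothing is read from these counts about the pairs. Mrpl18 stood beside Tcp1, a subunit of a cytosolic chaperonin (log2 fold change -0.41), and Mrpl49 beside Fau, which encodes a cytosolic ribosomal protein (-0.49). Mrpl47 stood beside Ndufb5, a complex I subunit (-0.51), Mrpl32 beside the proteasome subunit Psma2 (0.53) and Mrpl14 beside Tmem63b (0.24). With library size these 5 partners were at 0.051, -0.0075, -0.039, 1.01 and 0.71. The partners named here were chosen after their values were seen.

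The other proteins of the mitochondrial ribosome and its pathway were read from the same test, with library size values beside those of TMM factors. Over all tested genes 31.0% were lower and 28.2% higher with TMM factors, and 6.71% lower and 68.4% higher with library size. Of 5 mitochondrial ribosomal proteins with other symbols 5 were lower and 0 higher with TMM factors (median log2 fold change -0.30), and 0 lower and 3 higher with library size. Among them Dap3, a GTP-binding small subunit protein, had -0.30 and 0.17, Aurkaip1 -0.35 and 0.13, Gadd45gip1 -0.36 and 0.12, and Chchd1 -0.28 and 0.20. Of 15 genes listed as translation factors 7 were lower and 1 higher (median -0.13), and with library size 0 and 11. The list includes Oxa1l and Cox14, which are not translation factors and are among both the 7 and the 11. The initiation factors Mtif2 and Mtif3 had -0.35 and -0.40 with TMM factors and 0.12 and 0.076 with library size. Oxa1l, the insertase of the inner membrane that receives new proteins, had -0.33 and 0.14, and Cox14, a cytochrome oxidase assembly protein, -0.26 and 0.21.

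Of 28 assembly factors of the mitochondrial ribosome 16 were lower and 4 higher (median -0.27), and with library size 2 and 15. Mterf4, which brings an RNA methyltransferase to the large subunit, had log2 fold changes of -0.78 and -0.30 (TMM factors, then library size), and Trmt61b, a methyltransferase of mitochondrial RNA, had -0.85 and -0.38. Malsu1, which keeps an immature large subunit from joining the small one, had -0.48 and -0.0066, and the GTPase Gtpbp10 -0.56 and -0.091. The list of 22 mitochondrial aminoacyl-tRNA synthetases includes Qrsl1, Gatb and Gatc, which encode amidotransferase subunits and not synthetases. Of these 22 genes 7, Gatc among them, were lower and 4 higher (median -0.11), beside 31.0% and 28.2% of all tested genes. With library size 0 were lower and 20 higher, with Qrsl1, Gatb and Gatc among the 20, beside 6.71% and 68.4%. Gars, which serves the cytosol as well, rose by 0.78, Wars2 by 0.41 and Iars2 by 0.32 with TMM factors and by 1.26, 0.88 and 0.80 with library size, and Hars2 had -0.30 with TMM factors and 0.17 with library size. Of 18 genes for mitochondrial DNA maintenance and transcription 11 were lower and 2 higher (median -0.23), and with library size 0 and 11. The RNA polymerase gene Polrmt had -0.37 and 0.11, Tfam, which packs mitochondrial DNA, -0.28 and 0.19, the elongation factor Tefm -0.57 and -0.10, and Polg2 -0.63 and -0.16.

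Of 10 regulators of nuclear genes for mitochondria 4 were lower and 1 higher (median -0.25), beside 31.0% and 28.2% of all tested genes. With library size 1 was lower and 5 were higher, beside 6.71% and 68.4%. Gabpa, the DNA-binding subunit of the ETS factor GABP, had log2 fold changes of -0.36 and 0.11, a partner, Gabpb2, -0.76 and -0.29, and the nuclear receptor Esrra -0.42 and 0.050 (TMM factors, then library size). Another partner, Gabpb1, had -0.13 and 0.34, Nrf1 -0.033 and 0.44, and Yy1 -0.065 and 0.40. Gabpb1, Nrf1 and Yy1 were not called with TMM factors and were named after their values were seen. Myc rose by 2.04 with TMM factors and 2.56 with library size, from 7.01 ± 2.78 CPM in WT to 28.9 ± 21.9 CPM in KO mice (SD, n = 10, TMM factors).

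The RNAs that the mitochondrial ribosome holds and translates come from mitochondrial DNA. The 13 mitochondrially encoded protein genes were all lower in KO mice with TMM factors, beside 31.0% of all tested genes, with a median log2 fold change of -0.87. With library size 11 of 13 were lower, beside 6.71%, with a median of -0.40. With TMM factors ND3 had -1.34, CYTB -1.16, ATP8 -1.02 and COX2 -0.87. The sources used here do not give how ribosomal RNA was depleted, which bears on the values of both ribosomal RNAs. The small subunit RNA mt-Rnr1 was at 319 ± 56.0 CPM in KO and 723 ± 154 CPM in WT mice (SD, n = 10), and the large subunit RNA mt-Rnr2 was at 415.8 ± 87.1 and 869 ± 188 CPM (SD, n = 10). All KO mice lay below all WT mice for both RNAs with TMM factors. With library size alone the groups overlapped, with 240.1 to 472 CPM in KO and 395 to 793 CPM in WT mice for mt-Rnr1, and 326 to 671 and 536 to 1076 CPM for mt-Rnr2.

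The families most like the mitochondrial ribosomal proteins were set beside them in the same fit. The shares over all tested genes were 31.0% lower and 28.2% higher with TMM factors, and 6.71% lower and 68.4% higher with library size. Of 86 tested cytosolic ribosomal protein genes 43 were lower and 0 higher with TMM factors, with a median log2 fold change of -0.22, close to the -0.21 of the mitochondrial family, and 1 was lower and 45 higher with library size, with a median of 0.25 against 0.27. Of 81 tested subunits of the respiratory chain and ATP synthase encoded in the nucleus 71 were lower and 1 higher with TMM factors, with a median of -0.44, and 11 were lower and 24 higher with library size, with a median of 0.033. The differences between these families were not tested, and nothing particular to the mitochondrial ribosome is read from them.

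**Figure D4:**
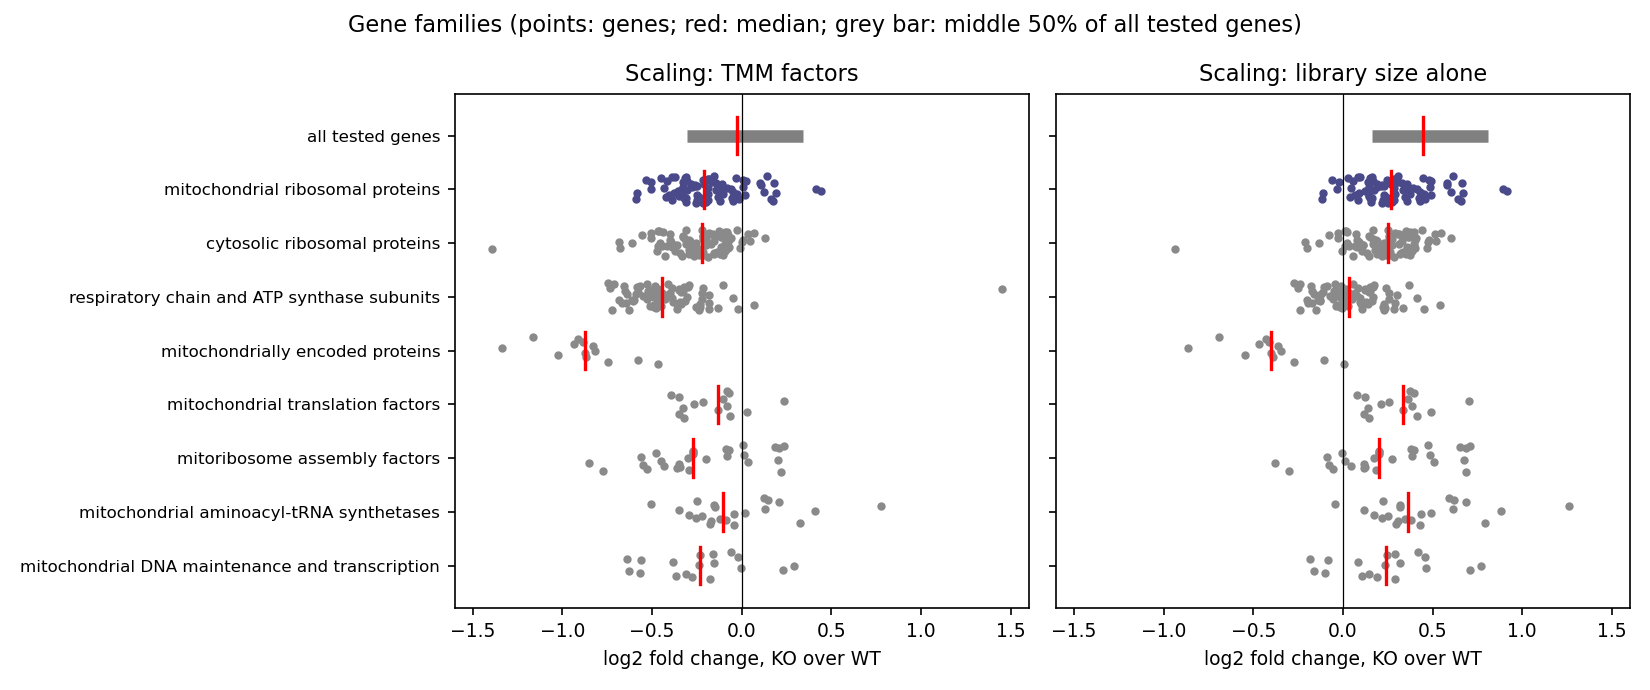
Log2 fold changes (KO over WT) of the genes of each family with TMM factors (left) and library size alone (right); points are genes, red lines medians, and the grey bar holds the middle 50% of all tested genes. The mitochondrial ribosomal proteins lie near the cytosolic ones on both scales, at medians of -0.21 and -0.22 (left) and 0.27 and 0.25 (right), and the mitochondrially encoded proteins lie lowest.

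The authors' deposited table of their own test, ROTS, lists 77 members among 12820 genes. At a false discovery rate under 0.05, that table has 15 of 77 members lower in KO mice, a share near the 18.9% of all its genes. It has 2 members higher, a share below the 22.1% of all its genes. At that threshold it thus shows no clear excess of lower members, unlike the 61.0% against 31.0% of edgeR with TMM factors. All of these members were called in the same direction by edgeR with TMM factors. The 2 higher members of the authors' deposited table were Mrps18a and Mrpl16, with log2 fold changes of 0.43 and 0.42. Its values rest on the authors' TMM-scaled signal. In the authors' deposited table of gene ontology terms, mitochondrial translation (75 annotated genes) had a false discovery rate of 1, and so did mitochondrial ribosome (91 annotated genes) when rounded.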

How the data were processed

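RNA of 20 livers, 10 KO and 10 WT, was analysed. The authors deposited fragment counts per Entrez gene, made with Rsubread on RefSeq mm10 per the file names, whereas HISAT2 2.0.5 and DESeq2 are named per the submitters' processing notes. A strand setting was not found in these sources. The authors' normalized signal equals counts scaled as CPM with TMM factors of all genes, when recomputed, and the deposited RPKM is that signal per kilobase. The authors' deposited ROTS table gives log2 fold changes, p-values and FDR; its log2 values equal differences of mean log2(signal + 1). The deposited gene ontology tables give FDR only.

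Genes were tested with edgeR 4.0.16 in R 4.3.3 (quasi-likelihood F test, robust, TMM factors, filterByExpr with a minimum count of 10 and a minimum total of 15, genotype as the only factor), with Benjamini-Hochberg adjustment over 13670 genes and a threshold of 0.05. Genes that were not tested held 0.0858% of fragments. CPM is scaled by TMM factors unless library size alone is named, and SE is that of the log2 fold change. Alternatives used DESeq2 1.42.0, limma 3.58.1 and sva 3.50.0. Scripts were tested on simulated data. All 90 pairs of mice of 1 genotype differed beyond sampling noise (chi-square per degree of freedom from 12.8 to 252), so none was counted as a repeat. For fragment statistics, 22 columns were not used.

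The members and lists were chosen with earlier results of these data known. Members named are up to 8 called rises and 8 called falls with the largest change, the 4 with the smallest adjusted p, the 3 highest and 3 lowest by RPKM, and the Mrps18 genes, Mrps30, Mrps36 and members of the stalk and tunnel; Mrpl36 is named as the member not tested. Of other lists up to 4 called genes with the smallest adjusted p are named. Genes outside this rule are said to be chosen after their values were seen. Those with overlapping exons, those lost without 1 mouse and the amidotransferase subunits are named for that property. RefSeq holds 6 pseudogenes named after 4 members, and none is in the count table.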

Additional observations from a re-analysis of the deposited data

Results flagged for a closer look

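In each genotype of 10 mice, the gap of the highest or lowest mouse to the next was compared with Dixon's 95% critical value for the 25 members named by the rule and for 5 summed measures of the family, and chance alone marks about 1 in 20 groups. Of 60 groups 3 were marked, each by 1 mouse. Mrpl41 was at 21.8 CPM in KO_435, where the other KO mice lay between 15.3 and 18.0 CPM. Mrpl14 was at 77.4 CPM in WT_406, where the other WT mice lay between 58.1 and 68.4 CPM. Mrps17 was at 5.27 CPM in WT_427, where the other WT mice lay between 7.004 and 8.76 CPM.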

How the results depend on the processing

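Library scaling decided the direction of the family. With library size alone, counts higher and lower in KO mice were 56 and 0 for all members, 35 and 0 for the large and 21 and 0 for the small subunit. Of all tested genes 68.4% were higher and 6.71% lower on that scale. The median log2 fold changes were 0.27, 0.29 and 0.25, and the summed level changed by 0.29 (log2, KO over WT) in place of -0.18. Of the 77 tested members 58 turned from below to above 0 with library size. Among the genes that the naming rule chose, those that turned were Mrpl23 (0.029), Mrpl41 (0.048), Mrpl12 (0.041), Mrpl52 (0.23), Mrps21 (0.22), Mrpl14 (0.12), Mrps25 (0.17), Mrps17 (0.14), Mrps36 (0.15), Mrpl45 (0.42), Mrpl24 (0.21), Dap3 (0.17), Aurkaip1 (0.13), Gadd45gip1 (0.12), Chchd1 (0.20), Mtif3 (0.076), Oxa1l (0.14), Mtif2 (0.12), Cox14 (0.21), Hars2 (0.17), Polrmt (0.11), Tfam (0.19), Gabpa (0.11) and Esrra (0.050). Scaled to the members' sum, added after the data were seen, higher and lower were 21 and 20 for all members, 11 and 11 for the large and 10 and 9 for the small subunit, and Mrpl45 turned to 0.13. That scaling centres the members, so the balance over all members follows from it. Requiring a call under both scalings, also added, left 5 higher and 0 lower, which repeats the rises with TMM factors and the falls with library size.

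With assigned fragments as a covariate, 3 members and 2 large subunit genes were higher, the log2 fold change of Mrpl19 turned to -0.00222 and the log2 fold change of Mrps30 to -0.00135; the cause was not tested. The small subunit had 2 higher genes in place of 1 with DESeq2 size factors, upper-quartile factors, the stricter filter, the DESeq2 test, limma-voom, limma-trend on log2(RPKM + 0.1) and on log2(RPKM + 1), and the surrogate variable. By structure it had 0, and the CPM ratio of subunits changed by 0.050 (log2, KO over WT); sorted by symbol, the ratio from RPKM changed by -0.033. These tools and filters called 44 to 49 members lower.

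Without 1 mouse, members higher ranged from 3 to 9 (9 without KO_391, 8 without KO_416, and 3 without WT_407, WT_415 or WT_441) and lower from 40 to 50, large subunit genes from 2 to 5 and 24 to 32, and small from 1 to 4 and 16 to 18. Median log2 fold changes ranged from -0.23 to -0.17, -0.20 to -0.15 and -0.25 to -0.18. The change of the subunit ratio by symbol (log2, KO over WT) ranged from -0.0034 to 0.0050. The log2 fold change of Mrps30, which was not called, ranged from -0.00187 to 0.057. Of the 47 lower and 5 higher members, 40 and 3 were called in all 20 such fits. No paired analysis was possible because KO and WT mice share no number in the labels. Mrpl36, with at most 4 fragments a mouse and exons that overlap Gm20338, could not be tested.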
